A study of Mus musculus with 16 samples.

Results

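The genes described are 10 regulators of the Bcl2 family, chosen by their symbols, out of 17655 genes listed in each deposited file: Bcl2, Bcl2l1, Mcl1, Bax, Bak1, Bcl2l11, Bbc3, Pmaip1, Bid and Bad. All 10 symbols were found in all 16 files. The cells were mouse preSC, a precancerous cell of small cell lung cancer, labelled as lung neuroendocrine cells positive for Chga. Cells of both groups were labelled null for Rb1 and Trp53, with a heterozygous null Rbl2. The empty group carried an empty lentiviral control and the Wnt5a group carried a lentivirus with Wnt5a, a secreted Wnt ligand. Both were given doxycycline at 1 µg/mL for 48 hours before RNA extraction. The promoter of the transgene and the number of separate infections are not given in the sources used here.

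The Bcl2 family sets the threshold at which mitochondria release cytochrome c and start apoptosis. Bcl2, Bcl-xL (the product of Bcl2l1) and Mcl1 hold the effectors Bax and Bak (the product of Bak1) in check, and the BH3-only proteins Bim (Bcl2l11), Puma (Bbc3), Noxa (Pmaip1), Bid and Bad bind the guardians or the effectors and lower that threshold. Bax, Bbc3 and Pmaip1 are textbook targets of p53, and small cell lung cancer is known for high levels of BCL2.

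What joins these proteins is the BH3 domain, and its core is shown because it is the one feature that guardians, effectors and BH3-only proteins share. The longest coding sequence of 9 members in GENCODE M21 was searched in frame for a leucine codon, 3 codons of any kind, a codon for glycine, alanine or serine, and an aspartate codon. Each of the 9 held exactly 1 match, and 7 of these had glycine as the small residue, while Bbc3 had alanine and Bad had serine. The pattern alone is common, since 34.0% of 21591 mouse coding genes hold it somewhere. The 36 bases around each match follow, 5′ to 3′ on the coding strand, with the leucine, small-residue and aspartate codons in capitals.
Bcl2: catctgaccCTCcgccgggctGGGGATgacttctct
Bcl2l1: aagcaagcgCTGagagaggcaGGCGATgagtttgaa
Mcl1: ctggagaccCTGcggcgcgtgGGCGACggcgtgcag
Bax: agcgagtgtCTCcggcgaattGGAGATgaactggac
Bak1: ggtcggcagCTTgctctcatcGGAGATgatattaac
Bcl2l11: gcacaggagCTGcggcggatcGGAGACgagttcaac
Bbc3: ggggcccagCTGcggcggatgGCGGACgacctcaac
Bid: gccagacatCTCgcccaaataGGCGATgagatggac
Bad: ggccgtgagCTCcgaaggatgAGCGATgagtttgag
The stretches of Bcl2l11 and Bbc3 were the most alike of all pairs, with 25 of 36 bases identical, and the least alike pairs shared 13. In GRCm38 each stretch lies within 1 coding exon. On the plus strand these are Mcl1 (chr3:95659427-95659462, exon 1), Bcl2l11 (chr2:128147141-128147176, exon 3), Bbc3 (chr7:16313764-16313799, exon 3) and Bad (chr19:6950783-6950818, exon 3). On the minus strand they are Bcl2 (chr1:106712575-106712610, exon 1), Bcl2l1 (chr2:152829697-152829732, exon 2), Bax (chr7:45465997-45466032, exon 3), Bak1 (chr17:27022531-27022566, exon 4) and Bid (chr6:120897289-120897324, exon 4).

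Values are normalised read counts, that is, reads per gene divided by 1 factor per sample. Recovered totals were 7526676 to 8859862 reads per sample. Within a group, samples 1 to 4 differed from each other by about the sampling noise of their counts, as did samples 5 to 8, and each set of 4 was counted as 1 library, A or B, so that n = 2 per group. Nothing in the labels says that A and B came from separate cultures, so p-values measure only the spread between these libraries. Wnt5a itself was at 144 and 99.8 in the empty libraries A and B and at 1049 and 1509 in the Wnt5a libraries, which is 3.38 higher on the log2 scale (adjusted p = 0.0010 in limma). Reads assigned to Rb1 were abundant despite the null label, at 3217 (A) and 3229 (B) for empty cells and 3169 (A) and 3217 (B) for Wnt5a cells. Counts per gene do not show which exons these reads cover. All 11 neuroendocrine markers passed the filter on low values. Of these 11 markers 10 were lower in Wnt5a, as were 6095 of 12357 genes tested. Scg2 was called lower (0.672% of genes tested were). In a fit with the library letter, A or B, as a block (the replicate block), 5 of the 11 were called lower (8.27% of genes tested). Chga was among them (log2 difference -0.25, adjusted p = 0.428 in limma, 0.013 when blocked). In bulk RNA, fewer cells of a type and less RNA per cell cannot be told apart. The 4 leukocyte markers listed summed to 10.8 and 15.3 in empty and to 12.2 and 15.5 in Wnt5a. The 5 fibroblast markers listed summed to 604 and 353 against 244 and 248, nearly all of it Dcn, with Col1a2 at most 0.24. The 4 endothelial markers listed summed to 3210 and 2335 against 2305 and 2006, nearly all of it Vwf, with Cdh5 at most 0.28. The part of these markers in the results was not tested.

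Among the members, 9 had a mean normalised read count of at least 10 and were tested, and limma called 0 of these 9 at an adjusted p under 0.05, against 2.06% of the 12357 genes tested (1.38% higher in Wnt5a, 0.672% lower). By unadjusted p under 0.05, 1 of the 9 passed (16.1% of genes tested). edgeR called 0 of the 9, against 1.99% of genes (1.33% higher, 0.664% lower), and DESeq2 called 0, against 4.35% (2.53% higher, 1.82% lower). All 9 differed by less than 1.5-fold, as did 95.9% of genes tested, and for 7 of the 9 the whole 95% interval of the difference lay within 1.5-fold. The libraries of the groups did not overlap for 4 of the 9 (44.2% of genes tested), and the 8 samples of each group did not overlap for 2, Mcl1 and Bcl2l11 (12.4% of genes tested). The difference had the same sign in the A and the B libraries for 6 of the 9 (71.2% of genes tested). In the fit with the library letter as a block, which compares A with A and B with B, 1 of the 9 was called, Bcl2l11 (17.0% of genes tested).

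**Figure D1:**
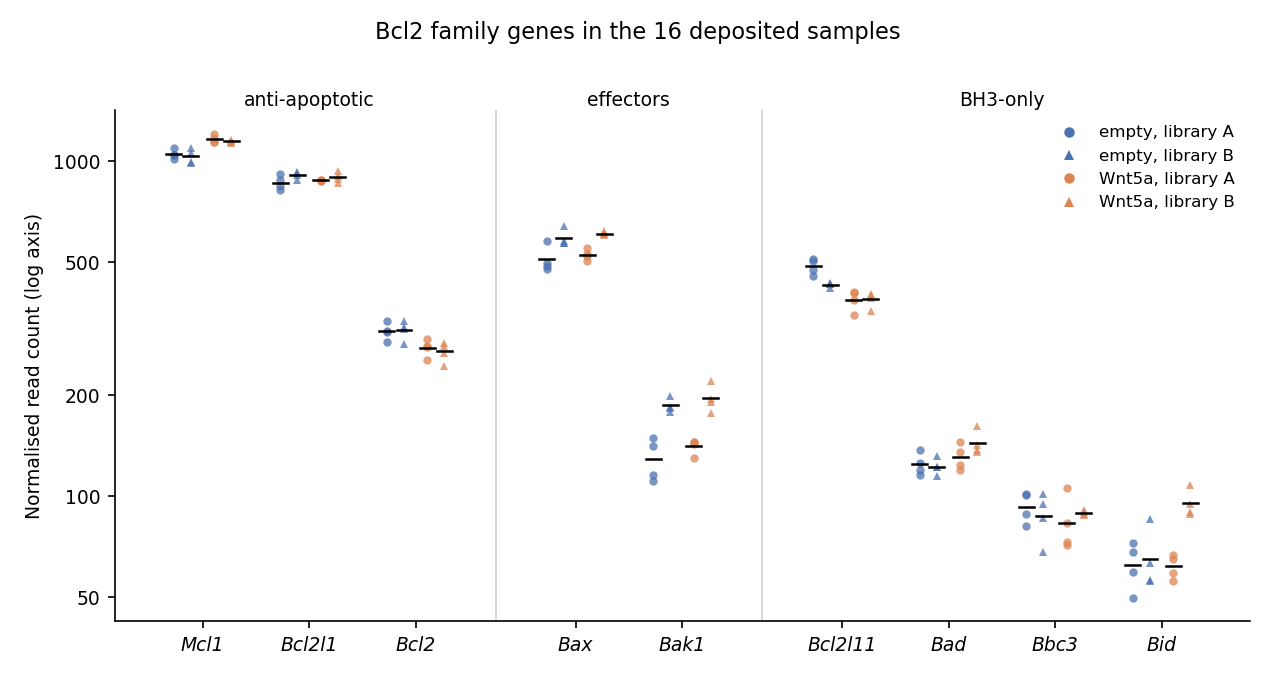
Normalised read count (log axis) of the 9 tested members in the 16 samples, by group (colour) and library (circles A, triangles B), with the library mean as a black line. Mcl1 lies between 989 and 1094 in the empty samples and above that in every Wnt5a sample, while Bak1 separates by library and not by group; Pmaip1 is left out because it had 1 read.

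Mcl1, a short-lived guardian that binds Bim, Noxa and Bak, was the most abundant member by count. Its normalised read count ranged from 989 (median 1041) to 1094 in the 8 empty samples and from 1133 (median 1145) to 1208 in the 8 Wnt5a samples. Each Wnt5a sample was above every empty sample, and samples of the groups did not overlap for 12.4% of genes tested. The library values were 1048 and 1033 in empty and 1165 and 1146 in Wnt5a, a log2 difference of 0.15 (SE 0.07, adjusted p = 0.360 in limma) that was nearly equal in the A and the B libraries (0.15 in each).

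Bcl2l1, whose main product Bcl-xL guards the outer mitochondrial membrane, did not separate the groups. The 8 empty samples lay between 818 and 930 (median 896) and the 8 Wnt5a samples between 861 and 934 (median 879). The library values were 863 and 911 against 877 and 896, and the 95% interval of the log2 difference ran from -0.18 to 0.17.

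Bcl2, the founding guardian and the target of the drug venetoclax, was the lowest of the guardians. Its samples ranged from 284 (median 314) to 334 in empty and from 245 (median 280) to 295 in Wnt5a, so the sample ranges overlapped narrowly. The library values were 311 and 313 against 277 and 270, a log2 difference of -0.19 (SE 0.08, adjusted p = 0.340 in limma). Bcl2 lies on chromosome 1, where the median of all genes tested was -0.17, and relative to that median Bcl2 differed by -0.01.

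Bax, the cytosolic effector that forms pores in the outer membrane, ranged from 478 (median 570) to 642 in the empty samples and from 505 (median 575) to 617 in the Wnt5a samples. The libraries of each group differed more from each other than the groups did: Bax was at 510 and 590 in empty A and B and at 526 and 608 in Wnt5a A and B. The log2 difference between groups was 0.04 (SE 0.11, adjusted p = 0.91 in limma), and it turned to -0.06 without empty library A or without Wnt5a library B, fits that leave libraries A and B unbalanced.

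Bak1, the effector that resides in the membrane, showed the same order more strongly. Its 4 samples ranged from 111 to 149 in empty A, from 179 to 200 in empty B, from 130 to 146 in Wnt5a A and from 177 to 221 in Wnt5a B. Library B was therefore above library A in both groups without overlap, by 0.53 on the log2 scale in empty and 0.47 in Wnt5a. The mean of these differences was larger in size than that of 97.9% of the genes tested, and Bax stood at 79.4% by the same measure. Between the groups Bak1 differed by 0.10 (SE 0.22, 95% interval -0.42 to 0.61, adjusted p = 0.901 in limma). That difference was -0.17 without empty library A and -0.14 without Wnt5a library B. Exons of Ggnbp1, which was at 15.7 to 23.3 in the 4 libraries, overlap those of Bak1 on the opposite strand, and its part in the values of Bak1 was not tested.

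**Figure D2:**
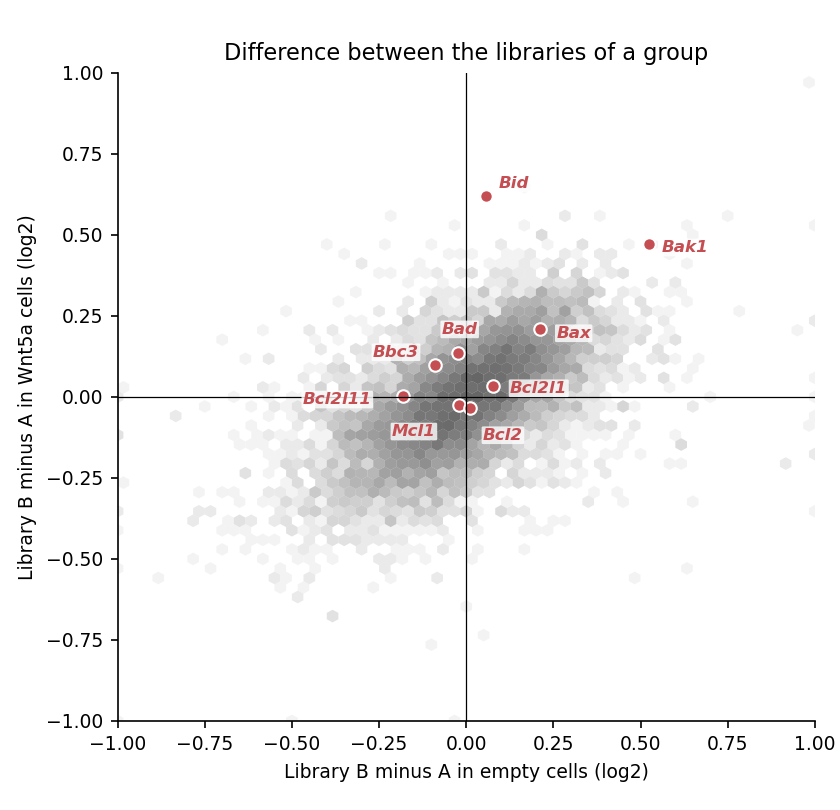
Log2 difference of library B minus library A in empty cells (horizontal) and in Wnt5a cells (vertical) for the 9 tested members (red) over the density of all genes tested (grey, darker is denser, values past 1 drawn at the edge). Bak1 is high on both axes (0.53 and 0.47), whereas Bid is high in Wnt5a cells (0.62) and near 0 in empty cells (0.06).

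Bcl2l11 encodes Bim, a BH3-only protein that binds every guardian and can activate Bax and Bak directly. It was the member called with the replicate block. The 8 empty samples ranged from 420 (median 444) to 510 and the 8 Wnt5a samples from 348 (median 395) to 406. Each Wnt5a sample was below every empty sample, and samples of the groups did not overlap for 12.4% of genes tested. Library values were 485 and 428 in empty and 386 and 387 in Wnt5a, so that the libraries of empty were further apart than those of Wnt5a. The log2 difference was -0.24 (SE 0.09, 95% interval -0.45 to -0.02), or 0.849-fold. Its adjusted p was 0.268 in limma and 0.048 under the replicate block. Over the alternatives that keep all libraries the adjusted p ranged from 7.8e-06 to 0.398, the latter in DESeq2. The low end came from 16 separate samples with the block, which counts repeat measurements as replicates and called 6012 of 12357 genes tested. Without empty library A the log2 difference was -0.15. It measured -0.33 from empty A to Wnt5a A and -0.14 from empty B to Wnt5a B.

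Bid links death receptors to mitochondria once caspase-8 cuts it. It had the largest fitted difference of the members and the least even one. Its samples lay between 49.8 and 72.4 in empty A, between 55.8 and 85.3 in empty B and between 56.0 and 66.9 in Wnt5a A, whereas the 4 samples of Wnt5a B lay between 88.4 and 108. Every sample of Wnt5a library B was thus above the 12 others. These levels rest on 227, 256, 263 and 407 reads in the libraries empty A, empty B, Wnt5a A and Wnt5a B. From empty A to Wnt5a A the log2 difference was -0.02, and from empty B to Wnt5a B it was 0.54. The gap of 0.56 between these was larger than that of 96.3% of the genes tested. Over both pairs it was 0.26 (SE 0.21, adjusted p = 0.641 in limma), and -0.05 without Wnt5a library B. Exons of Bcl2l13 overlap those of Bid on the opposite strand, and Bcl2l13 was at 847 and 851 in the Wnt5a libraries A and B. The part of Bcl2l13 in the values of Bid was not tested.

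Bad, which is silenced by survival kinases through binding to 14-3-3 proteins, ranged from 115 (median 122) to 137 in the empty samples and from 120 (median 137) to 162 in the Wnt5a samples. The sample ranges overlapped, but the libraries did not, at 125 and 123 against 131 and 144, as for 44.2% of genes tested. The log2 difference was 0.15 (SE 0.11, adjusted p = 0.585 in limma). Bad lies on chromosome 19, where the median of all genes tested was 0.36, so relative to its chromosome Bad differed by -0.20. Gpr137, whose exons overlap those of Bad on the opposite strand, was at 91.9 to 107 in the 4 libraries and differed by 0.15. Its part in the values of Bad was not tested.

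Bbc3 encodes Puma, which binds every guardian. It ranged from 68.1 (median 91.7) to 102 in the empty and from 71.6 (median 88.2) to 106 in the Wnt5a samples. The ranges coincided almost wholly. The log2 difference was -0.07 (SE 0.12, adjusted p = 0.868 in limma), with 338 to 381 reads per library. That difference was -0.16 from empty A to Wnt5a A and 0.03 from empty B to Wnt5a B.

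Pmaip1, which encodes Noxa, the partner of Mcl1, was the one of the 10 members with almost no reads. It had 1 read in 1 sample of empty library A and 0 reads in the 15 other samples. Empty A and B held 30220749 and 32592342 recovered reads in all, Wnt5a A and B 35102931 and 35315408. A count of 0 allows up to 3 reads of such a total, a limit that covers counting error only. Pmaip1 was below the level needed for a test, and no fold is given because both groups lay under the limit of 3 reads. It was one of 5298 listed genes with a mean under 10.

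**Figure D3:**
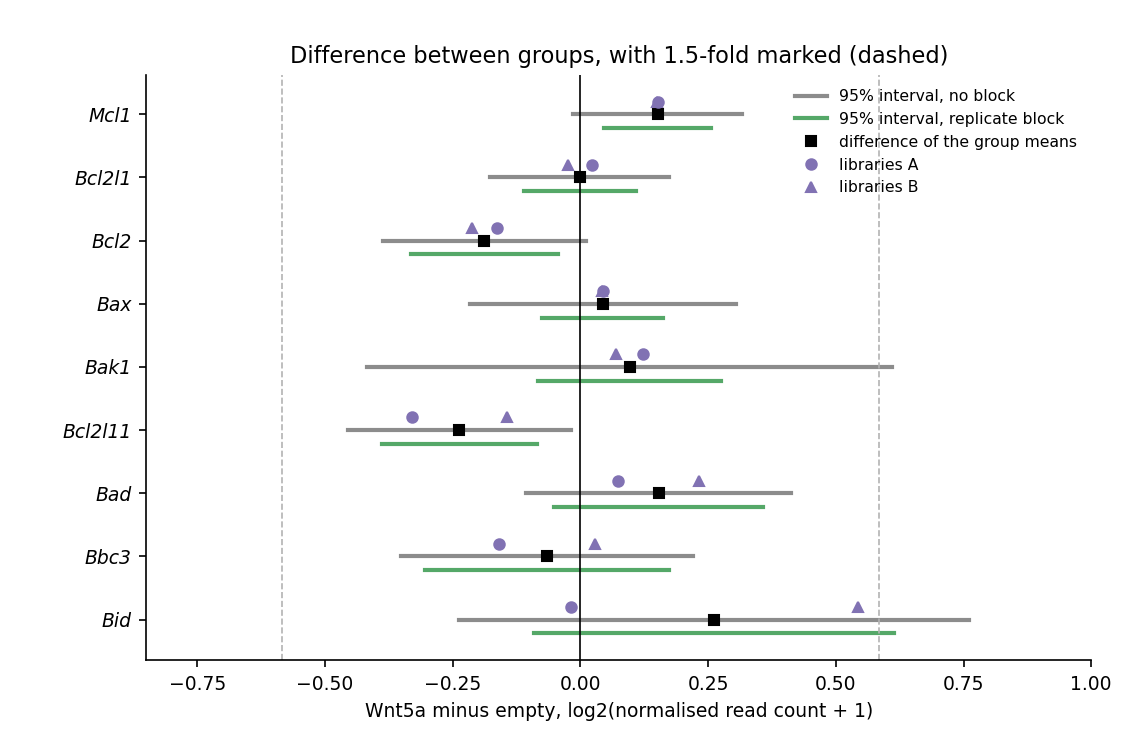
Log2 difference of Wnt5a minus empty for the 9 tested members (squares) with 95% intervals of the limma fit without (grey) and with (green) the replicate block, and the difference between the A (circles) and B (triangles) libraries. The interval of Bcl2l11 without the block ends at -0.02, and those of Bak1 and Bid reach past 1.5-fold (dashed lines).

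Of the p53 targets among the members, Bax differed by 0.04 (95% interval -0.22 to 0.30) and Bbc3 by -0.07 (-0.35 to 0.22) on the log2 scale, and Pmaip1 had 0 or 1 read per library, all in cells labelled null for Trp53. Reads assigned to Trp53 were at 64.8 and 70.0 in empty and at 84.5 and 97.3 in Wnt5a, a log2 difference of 0.42 (adjusted p = 0.187 in limma and 0.032 under the replicate block), on chromosome 11 with its median of 0.17. Which exons of Trp53 these reads cover is not shown by counts per gene.

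Levels of different genes were compared per kilobase of the longest annotated transcript. In empty cells Bax was highest, with a level of 500.1 ± 51.6 per kilobase (SD, n = 2), above Bcl2l1 at 346 ± 13.2 and Mcl1 at 304 ± 3.24. A wide step separated these from the rest. Bcl2l11 was at 90.7 ± 8.08, Bad at 80.7 ± 0.89, Bak1 at 66.2 ± 17.0, Bbc3 at 49.8 ± 2.18, Bcl2 at 43.4 ± 0.26 and Bid at 26.5 ± 0.76 per kilobase. Neighbours in this order did not overlap between libraries in empty cells. The 12225 tested genes with a length were also ranked by mean level per kilobase over the libraries of both groups. Bax stood at the 91.4th percentile, Bcl2l1 at the 85.9th, Mcl1 at the 84.5th, Bak1 at the 38.9th and Bcl2 at the 25.8th.

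In Wnt5a cells the order of the levels per kilobase was the same except that Bad (89.9 ± 6.06, SD, n = 2) stood above Bcl2l11 (76.8 ± 0.14). There Bcl2l11 overlapped with Bak1 (70.6 ± 16.3), and Bcl2 (38.1 ± 0.67) overlapped with Bid (32.5 ± 9.84). With the median length of the coding transcripts in place of the longest, Bax, Bcl2l1 and Mcl1 kept the top ranks in both groups, although Bcl2l1 and Mcl1 then overlapped in Wnt5a. Bbc3 moved from rank 7 to rank 4, where it overlapped with Bcl2l11 in empty, and Bid stood above Bcl2 in Wnt5a, again with overlap.

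**Figure D4:**
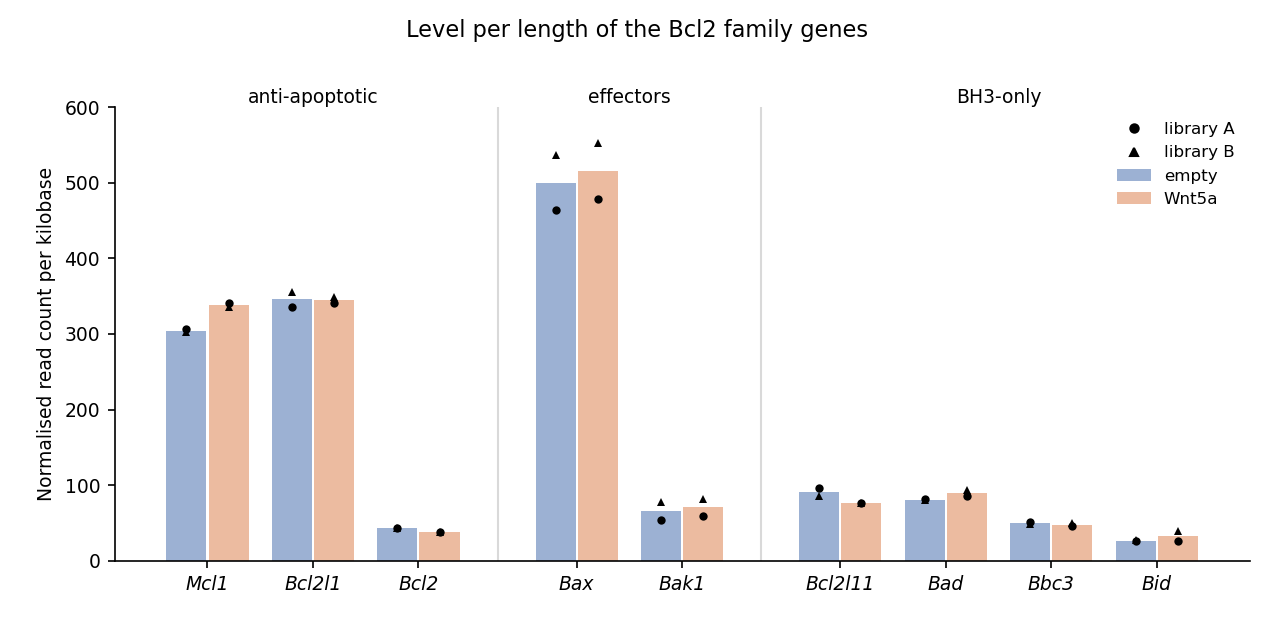
Normalised read count per kilobase of the longest transcript (linear axis) for the 9 tested members by role, as the mean of the libraries (bars, blue empty, orange Wnt5a) with libraries A (circles) and B (triangles). Bax (500.1 in empty), Bcl2l1 (346) and Mcl1 (304) stand far above the other members.

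Summed by role, the guardians made up 47.0% and 45.0% of the members' level per kilobase in empty A and B, and 48.3% and 44.7% in Wnt5a A and B. The effectors made up 35.5% and 39.5% in empty and 36.0% and 39.3% in Wnt5a, and the BH3-only genes 15.4% to 17.5% over the 4 libraries. The ratio of guardians to all other members was 0.888 and 0.819 in empty and 0.935 and 0.807 in Wnt5a. The groups overlapped in each of these measures, and libraries A and B differed by more than the groups did in the share of effectors, of which Bax was the larger part.

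Other relatives of the family were taken from a list of 15, of which 12 were listed in the files and 10 were tested. Limma called 0 of the 10 without the block (2.06% of genes tested), edgeR 0 (1.99%) and DESeq2 1, Bok (4.35%). By unadjusted limma p under 0.05, 2 of the 10 passed (16.1% of genes tested). The median log2 difference of the 10 was -0.06, against 0.0026 for all genes tested. With the replicate block 2 of the 10 were lower in Wnt5a (8.27% of genes tested were), Bok and Bik. Where a range over alternatives is given, its low end came from 16 separate samples with the block, which counts repeat measurements as replicates. Bok, a Bax-like effector, was at 501 and 596 in empty and 371 and 443 in Wnt5a, a log2 difference of -0.43 (adjusted p = 0.150 in limma, 0.0036 when blocked; 7.7e-14 to 0.514 over its alternatives). The log2 difference of Bok was -0.56 to -0.30 without any one library. All 8 Wnt5a samples of Bok lay below all 8 empty samples, each set counted as 2 libraries. Samples of the groups did not overlap for 12.4% of genes tested. Bok lies on chromosome 1, and relative to the median there it differed by -0.26. Bik, a BH3-only protein of the endoplasmic reticulum, was at 153 and 166 in empty and 123 and 131 in Wnt5a, a log2 difference of -0.33 (adjusted p = 0.198 in limma, 0.033 when blocked; 3.6e-05 to 0.559 over its alternatives).

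The remaining relatives differed less or varied more. The guardian Bcl2l2 was at 644 ± 36.4 in empty and 639 ± 34.2 in Wnt5a (SD, n = 2). Bmf, a BH3-only gene, followed the libraries, at 374 and 264 in empty A and B and 329 and 266 in Wnt5a A and B. So did the mitophagy receptor Bnip3, at 678 and 395 in empty and 474 and 364 in Wnt5a. Its log2 difference was -0.32 (adjusted p = 0.635 in limma). That difference was 0.07 without empty library A and -0.71 without empty library B, fits that leave libraries A and B unbalanced. Hrk, a BH3-only gene of neurons, was low, at 10.8 and 17.1 against 8.69 and 9.14, with 37 to 67 reads per library. Its log2 difference of -0.56 (SE 0.29, adjusted p = 0.418 in limma) was the largest in size of the 10 tested. Bnip3l was the most abundant by count, at 2061 to 2190. Bcl2l12, Bcl2l13, Bcl2l14 and Bnip3l differed by -0.03 to 0.05 on the log2 scale, and Bcl2l10 and Bcl2l15 did not exceed 1.17 (Bcl2l15) in any library. The Bcl2a1 genes were not analysed here.

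Downstream of the mitochondria, all 21 genes of the apoptosome, caspases and inhibitors of apoptosis were tested, with 10 higher and 11 lower in Wnt5a and a median log2 difference of 0.00. Limma called 1 of the 21 without the block (2.06% of genes tested), edgeR 1 (1.99%) and DESeq2 2 (4.35%). By unadjusted limma p under 0.05, 4 of the 21 passed (16.1% of genes tested), among them Casp9, Birc5 and Dffa.

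With the replicate block 2 of the 21 were higher, Birc5 among them (8.68% of genes tested were). The block also called 2 lower (8.27% of genes tested), Casp9 and Birc6. Ranges over alternatives have their low end at 16 separate samples with the block, which counts repeat measurements as replicates. Casp9, the initiator caspase recruited by Apaf1, was at 506 and 477 in empty and 408 and 379 in Wnt5a. Its log2 difference was -0.32 (adjusted p = 0.131 in limma, 0.0095 when blocked). Over the alternatives that keep all libraries its adjusted p ranged from 6.2e-10 to 0.203. Without any one library the log2 difference was -0.38 to -0.27. Samples of the groups did not overlap for Casp9, as for 12.4% of genes tested. Birc5, which encodes survivin, an inhibitor of apoptosis that also serves in mitosis, was at 376 and 573 against 615 and 765, a log2 difference of 0.56 (adjusted p = 0.231 in limma, 0.0048 when blocked), or 0.39 relative to chromosome 11. DESeq2 called Birc5 too (adjusted p = 0.047). Its log2 difference in limma was 0.26 to 0.87 without any one library. Over the alternatives of Birc5 the adjusted p ranged from 5.5e-14 to 0.660. Dffa, the inhibitor of the apoptotic nuclease, was at 164 and 149 against 188 in both Wnt5a libraries, a log2 difference of 0.26 (adjusted p = 0.265 in limma).

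In the death receptor arm 9 of 11 genes were tested. Limma called 0 without the block (2.06% of genes tested), as did edgeR (1.99%) and DESeq2 (4.35%). By unadjusted limma p under 0.05, 1 of the 9 passed, Cflar (16.1% of genes tested). The median log2 difference was -0.12, against 0.0026 for all genes tested. Of the 9, 7 were lower in Wnt5a, as were 6095 of 12357 genes tested. The replicate block called 2 of the 9, Cflar and Tnfrsf10b, both lower (8.27% of genes tested were). Their ranges over alternatives have the low end at 16 separate samples with the block, which counts repeat measurements as replicates. Cflar, the decoy of caspase-8, was at 688 and 622 in empty and at 556 and 557 in Wnt5a, a log2 difference of -0.23 (adjusted p = 0.229 in limma, 0.034 when blocked; 1.7e-07 to 0.866 over its alternatives). Casp8, which cuts Bid, was at 603 and 656 against 546 and 602, a difference of -0.13 (adjusted p = 0.560 in limma). Both lie on chromosome 1 and differed by -0.06 and 0.04 from its median. Tnfrsf10b, a receptor of the ligand TRAIL, was at 70.9 and 81.2 against 45.6 and 65.9, a log2 difference of -0.46 (adjusted p = 0.321 in limma, 0.047 when blocked; 0.00019 to 0.777 over its alternatives). The adaptor Fadd differed by -0.12 (adjusted p = 0.613 in limma).

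Of 19 genes that act on family members, limma called 0 without the block (2.06% of genes tested). edgeR called 0 (1.99%) and DESeq2 1, Trp73 (4.35%). By unadjusted limma p under 0.05, 5 of the 19 passed (16.1% of genes tested). The low end of each range over alternatives came from 16 separate samples with the block, which counts repeat measurements as replicates. Trp73, a p53 relative that can activate Bbc3, was at 81.6 and 109 in empty and at 184 and 157 in Wnt5a. Its samples did not overlap between the groups, as for 12.4% of genes tested. Its log2 difference of 0.85 (SE 0.16, adjusted p = 0.062 in limma, 0.011 when blocked; 3.3e-10 to 0.160 over its alternatives) was 1.17 between the A and 0.53 between the B libraries. Without any one library the log2 difference of Trp73 was 0.64 to 1.05. Pim3, a kinase of Bad, was at 624 and 559 against 519 and 495, a log2 difference of -0.22 (adjusted p = 0.284 in limma, 0.033 when blocked; 5.5e-07 to 0.891 over its alternatives). Ywhae, a 14-3-3 protein, was at 6800 and 7051 against 7912 and 8167, a log2 difference of 0.22 (adjusted p = 0.248 in limma, 0.017 when blocked), or 0.04 relative to chromosome 11. With the block 4 of the 19 were higher (8.68% of genes tested were), Trp73, Trp53, Ywhae and Mapk9, and 3 lower (8.27% of genes tested), Pim3, Fbxw7 and Usp9x, of which Mapk9, Fbxw7 and Usp9x are named because of that result.

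**Figure D5:**
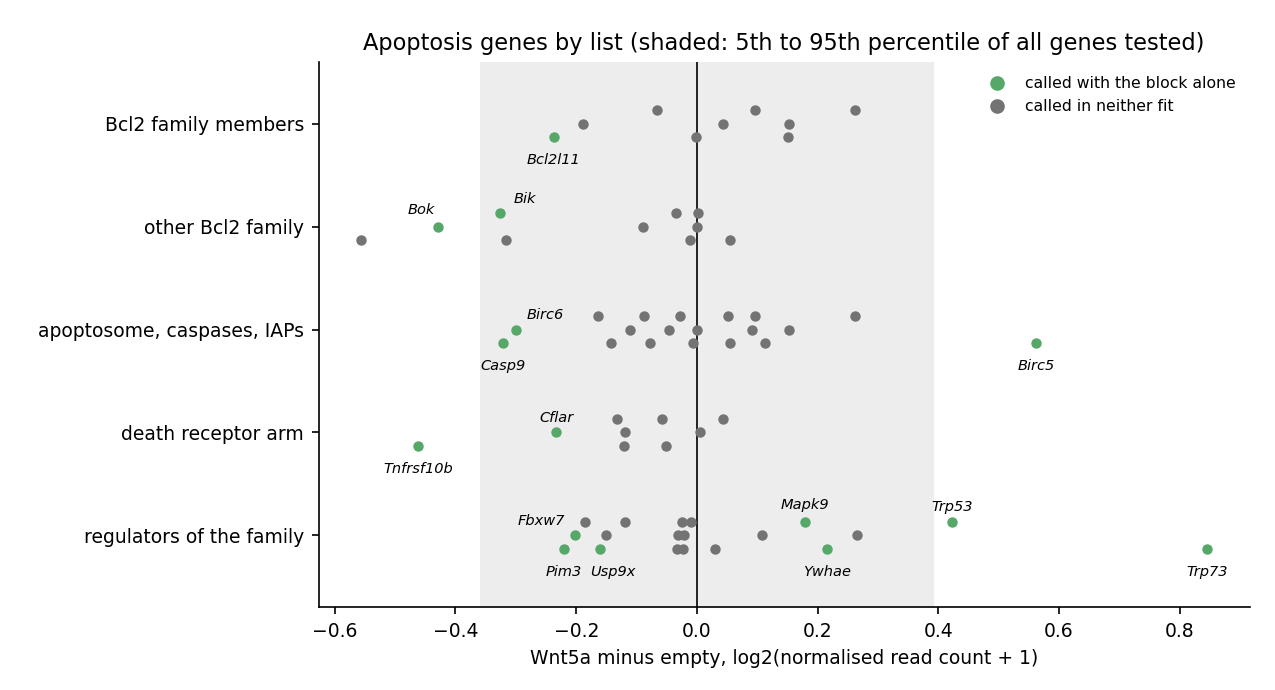
Log2 difference of Wnt5a minus empty for tested genes of the 5 apoptosis lists (1 point a gene, spread vertically for legibility, genes not reported left out), coloured by whether the limma adjusted p was under 0.05 with the replicate block alone (green) or in neither fit (grey). Trp73 lies farthest to the right, at 0.85, and the 9 Bcl2 family members lie between -0.24 and 0.26.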

How the data were processed

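RNA sequencing of 16 samples, 8 per group, was analysed. The authors deposited 1 normalised signal per gene and sample; TopHat, Bowtie, HTSeq and DESeq2 are named, with no version or role, in the submitters' processing notes, and libraries were made by oligo-dT selection from 500 ng of RNA, per the labels' protocols. The genome build, annotation and strand use are not given in the sources used here, so reads of overlapping genes cannot be told apart. Dividing each sample's deposited signal by its smallest step gave whole reads for 100% of values (tolerance 0.01).

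Pairs of samples with an index of dispersion of their reads under 1.5 were taken as 1 library (24 pairs at 0.987 to 1.05, the 32 others at 5.23 to 5.44; 14 of the 24 still gave a chi-square p under 0.05). Their signal values were averaged. Genes with a mean of at least 10 (12357) were compared with limma 3.58.1 (R 4.3.3, eBayes with trend) on log2(value + 1), which understates changes of low genes, with Benjamini-Hochberg adjustment and a threshold of 0.05. Same-numbered samples of the groups deviated together (Pearson r across genes 0.175 to 0.220 in the 8 pairs). Most empty samples, however, correlated best with a Wnt5a sample of another number, though of the same library letter. The 8 values thus restate a single contrast of libraries A and B, shared by the groups (r = 0.440). The fit was repeated with libraries A and B as a replicate block. That pairing comes from the numbers in the labels and this contrast. edgeR 4.0.16 and DESeq2 1.42.0 were run on recovered reads summed per library, and the other alternatives were quantile normalization, median centring, pseudocounts of 0.1 and 10, a minimum of 50 or none, no trend, 16 separate samples, removal of chromosome medians and omission of each library. The fits were also run on simulated data with larger changes than those of the members and no effect shared by libraries A and B. Such data cannot test the fits for differences as small as those of the members.

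Lengths and exons came from GENCODE M21 and chromosomes from RefSeq GRCm38.p6 (17623 of 17655 symbols matched). Genes named were the members, the other Bcl2 family genes tested, genes past the threshold and the 4 smallest p-values of each list, the genes in the genotype or on the lentivirus, and Chga. The members and lists were chosen with earlier results of these data known. One sequence of the family and some genes of the lists are not reported here.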

Additional observations from a re-analysis of the deposited data

How the results depend on the processing

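Without the block 0 of the 9 tested members were called (254 of 12357 genes tested). The replicate block called 1, Bcl2l11 (2095 of 12357 genes). With 16 separate samples 3 were called, Bcl2, Mcl1 and Bcl2l11 (4377 of 12357 genes). With 16 samples and the replicate block 5 were called, these 3 with Bid and Bad (6012 of 12357 genes). Each other alternative that keeps all libraries called 0. Of the 59 other apoptosis genes tested, 1 was called in the reported fit, 15 with the replicate block, 22 with 16 samples, 32 with 16 samples and the replicate block, 4 by DESeq2, 0 to 6 without one library, and 0 without the filter, with a minimum of 50, without the trend or with chromosome medians removed. Over all genes, 254 were called (171 higher, 83 lower), 2095 with the replicate block (1073 and 1022), 4377 with 16 samples (2191 and 2186), 6012 with 16 samples and the replicate block (3005 and 3007), 146 without the filter (130 and 16), 102 with a minimum of 50 (60 and 42), 158 without the trend (117 and 41), 538 by DESeq2 (313 and 225) and 138 to 1098 without one library, where the lone library is assumed to vary like the pair. Chromosome medians removed gave 207 (118 and 89). The cause of these changes was not tested, but 16 samples treat repeat measurements of 4 libraries as replicates.

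Direction was not kept by the members nearest 0 or tied to a library. Without one library, which leaves A and B unbalanced, Bcl2l1 ranged from -0.0401 to 0.0379, Bax from -0.0618 to 0.149, Bak1 from -0.17 to 0.36 and Bid from -0.0473 to 0.571 on the log2 scale. Bcl2l1 was also 0.0166 after quantile normalization and 0.0030 with chromosome medians removed, which turned Bad to -0.20. Mcl1 (0.14 to 0.16), Bcl2 (-0.21 to -0.17), Bcl2l11 (-0.33 to -0.15), Bbc3 (-0.11 to -0.02) and Bad (0.08 to 0.22) kept their sign without any one library. Bbc3 nevertheless differed in sign between the pairs, at -0.16 between the A and 0.03 between the B libraries. Among other genes the same omissions gave -0.0693 to 0.0459 for Bcl2l2, -0.34 to 0.16 for Bmf, -0.146 to 0.0769 for Bcl2l12, -0.0281 to 0.0321 for Bcl2l13, -0.0127 to 0.122 for Bcl2l14, -0.706 to 0.0733 for Bnip3 and -0.0427 to 0.0443 for Bnip3l. Bcl2l13 was -0.0171 after median centring and -0.0019 in DESeq2, Bnip3l -0.0183 after median centring, -0.00021 in edgeR and -0.0022 in DESeq2, Rb1 0.0050 after quantile normalization and Casp8 0.0412 with chromosome medians removed. The ratio of guardians to the other members per kilobase was 0.854 in empty and 0.871 in Wnt5a as means, and 0.814 and 0.84 with the median coding length. The least covered member tested, Bid, rests on 227 to 407 reads per library, and Pmaip1 on 0 or 1.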

Other observations

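Values follow for 5 genes of the cell death machinery that the report does not describe, chosen after their values were seen. Cycs, which encodes cytochrome c, was at 1274 to 1588 in the 4 libraries, and Apaf1, its partner in the apoptosome, at 333 to 374. The caspase inhibitor Xiap was at 1602 to 1813 and its mitochondrial antagonist Diablo at 571 to 630. Casp6 was low, at 24.0 to 31.9. None of these 5 genes passed the limma threshold with or without the replicate block.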
